A study of Mus musculus with 7 samples.

Results

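The genes described here are the Gli transcription factors Gli1, Gli2 and Gli3 and their regulators Sufu and Spop, measured in cerebellar granule neuron precursors sorted by a Nestin reporter. They were taken as every probe set of the array that the platform annotation gives to exactly 1 of the 5 genes, which is 12 of 45037 probe sets: 1 for Gli1, 2 for Gli2 and 3 each for Gli3, Sufu and Spop. The probe sets were taken by annotation and not by their measured values, but the 5 genes were chosen with earlier results of these data known. All cells came from mice of the genotype Math1-Cre/Ptc-loxp/Nestin-CFP, in which Math1-Cre deletes Ptch1 in the granule neuron lineage and CFP is driven by Nestin regulatory sequence. The cells were taken from the cerebellum without culture or treatment. The fractions were Nestin-positive cells (4 arrays, replicates 1, 3, 4 and 5) and Nestin-negative cells (3 arrays, replicates 1, 4 and 5), 1 Affymetrix Mouse Genome 430 2.0 array per sample. Both fractions came from mice of this genotype, and no sample from mice with intact Ptch1 was analysed here. Whether Ptch1 was deleted in the cells of each fraction was not measured. The age is postnatal day 7 in the sample labels, which call the tissue medulloblastoma, and postnatal day 4 in the series description. Nothing in the labels says that samples came from separate animals, so the p-values measure the spread between these samples, some of which may be technical.

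In the Hedgehog pathway, the receptor Ptch1 holds the membrane protein Smo inactive until a ligand binds, and loss of Ptch1 therefore leaves the pathway on. The pathway ends on the Gli factors: Gli2 is the main activator, Gli3 is mostly cut to a repressor, and Gli1 is an activator that is itself a transcriptional target. Sufu binds Gli proteins and holds them back, and Spop is the substrate adaptor of a Cul3 ubiquitin ligase that marks Gli2 and Gli3 for degradation. In granule neuron precursors this pathway drives division, and mutations that keep it on cause medulloblastoma.

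Promoter windows were available for 4 of the 5 genes (RefSeq, GRCm38.p6, from 250 bases before to 50 bases after the start). Those of Gli3 and Gli2 are shown because these relatives gave the highest and one of the smallest differences between the fractions, and because Gli proteins bind a known DNA motif. Capitals mark CCACCC or its reverse complement GGGTGG, the core of that motif. Read 5′ to 3′ on the strand of the gene, the Gli3 window lies at chr13:15463473-15463772 on the plus strand, the Gli2 window at chr1:119053570-119053869 on the minus strand.
Gli3: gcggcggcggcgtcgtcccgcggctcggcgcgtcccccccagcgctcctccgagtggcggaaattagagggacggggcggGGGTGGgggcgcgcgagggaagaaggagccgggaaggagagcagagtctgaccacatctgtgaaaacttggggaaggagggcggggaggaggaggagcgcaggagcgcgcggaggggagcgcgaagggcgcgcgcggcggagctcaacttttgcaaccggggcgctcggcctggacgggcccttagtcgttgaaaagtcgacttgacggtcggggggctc
Gli2: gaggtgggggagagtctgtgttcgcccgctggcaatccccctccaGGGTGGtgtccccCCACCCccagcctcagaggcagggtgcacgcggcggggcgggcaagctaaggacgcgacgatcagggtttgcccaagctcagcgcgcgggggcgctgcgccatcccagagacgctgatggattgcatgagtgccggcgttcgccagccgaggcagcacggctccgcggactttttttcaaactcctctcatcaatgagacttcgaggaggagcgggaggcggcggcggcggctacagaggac
The Gli3 window held 1 core match, 170 bases before the start. The Gli2 window held 2, at 192 and 205 bases before it, on opposite strands. Spop had 3 core matches and Sufu 0. The full motif GACCACCCA, which contains the core, was in 0 of the 4 windows on either strand. Over all 32851 windows of this length, 31.5% held the core and 0.253% the full motif, so the core is frequent and its matches are letters, not binding sites.

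Nes checked the sort: the signal of its brightest probe set was 478.4, 829.1, 722.1 and 543.4 on Nestin-positive replicates 1, 3, 4 and 5 and 179.1, 174.3 and 217.3 on Nestin-negative replicates 1, 4 and 5. Ptch1, the deleted gene, had a signal of 12780 to 13180 in Nestin-positive and 10590 to 11610 in Nestin-negative cells at its brightest probe set, and no source used here says where that probe set lies relative to the deletion. All 8 granule neuron precursor markers, among them Atoh1, Zic1 and Pax6, passed the filter on dim signal. Their summed signal was lower on every Nestin-positive array (54903 to 63406) than on any Nestin-negative array (66854 to 70391). Atoh1 lay between 2222 and 5318 on the 7 arrays and its fractions overlapped. Neurod1, a differentiation factor of granule neurons, read 13040 to 16480 in Nestin-positive against 19330 to 23070 in Nestin-negative cells, and Cntn2, an adhesion protein of early granule neurons, 994.3 to 2225 against 3308 to 5769. Zic1 was lower too (17650 to 20500 against 20720 to 22940). The list did not move as one: Mki67, its dividing-cell gene, was higher (7326 to 9246 against 4950 to 6223), and Zic2, Barhl1 and Pax6 overlapped. These genes were named after their values were seen. The array medians, below which a signal counts as dim, were 64.4 to 94.5. As a sign of RNA quality, the beta-actin 3' to 5' ratio was 1.68 to 1.90 on Nestin-positive and 1.74 to 1.99 on Nestin-negative arrays. With 7 arrays, every value below has limited precision.

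Of the 12 probe sets, 9 had signal at or above the array median on at least 3 arrays and were tested, and these 9 did so on all 7. The others, 1 of Gli3 (1450525_at) and 2 of Sufu (1420848_at and 1431713_at), were dim, and their ratios carry no order. The fit across 23585 probe sets (limma, Benjamini-Hochberg adjustment) called 0 of the 9, where it called 0% of all probe sets. It did not call Nes, the gene of the sort, either (log2 change 1.73 ± 0.22 SE at the brightest probe set, limma, adjusted p = 0.116). At an unadjusted p under 0.05 it gave 2 of the 9, both of Gli3, where 9.68% of all probe sets passed. Same-numbered samples deviated together across genes, so a second fit took the replicate number as a block. This pairing is read from the data and not stated in the labels. The blocked fit called 1 of the 9, a Gli3 probe set that rose, where it called 1.26% of all probe sets as higher and 4.26% in either direction. It called the brightest Nes probe set as well (log2 change 1.60, limma, adjusted p = 0.000221). Both Gli3 probe sets, and none of the other 7 tested, had values that did not overlap between the fractions, which 4.66% of all probe sets showed in this direction. In the 3 same-numbered pairs, 5 of the 9 were higher on the Nestin-positive array every time, where 18% of all probe sets were, and 1, of Sufu, was lower every time, where 18.7% were.

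**Figure D1:**
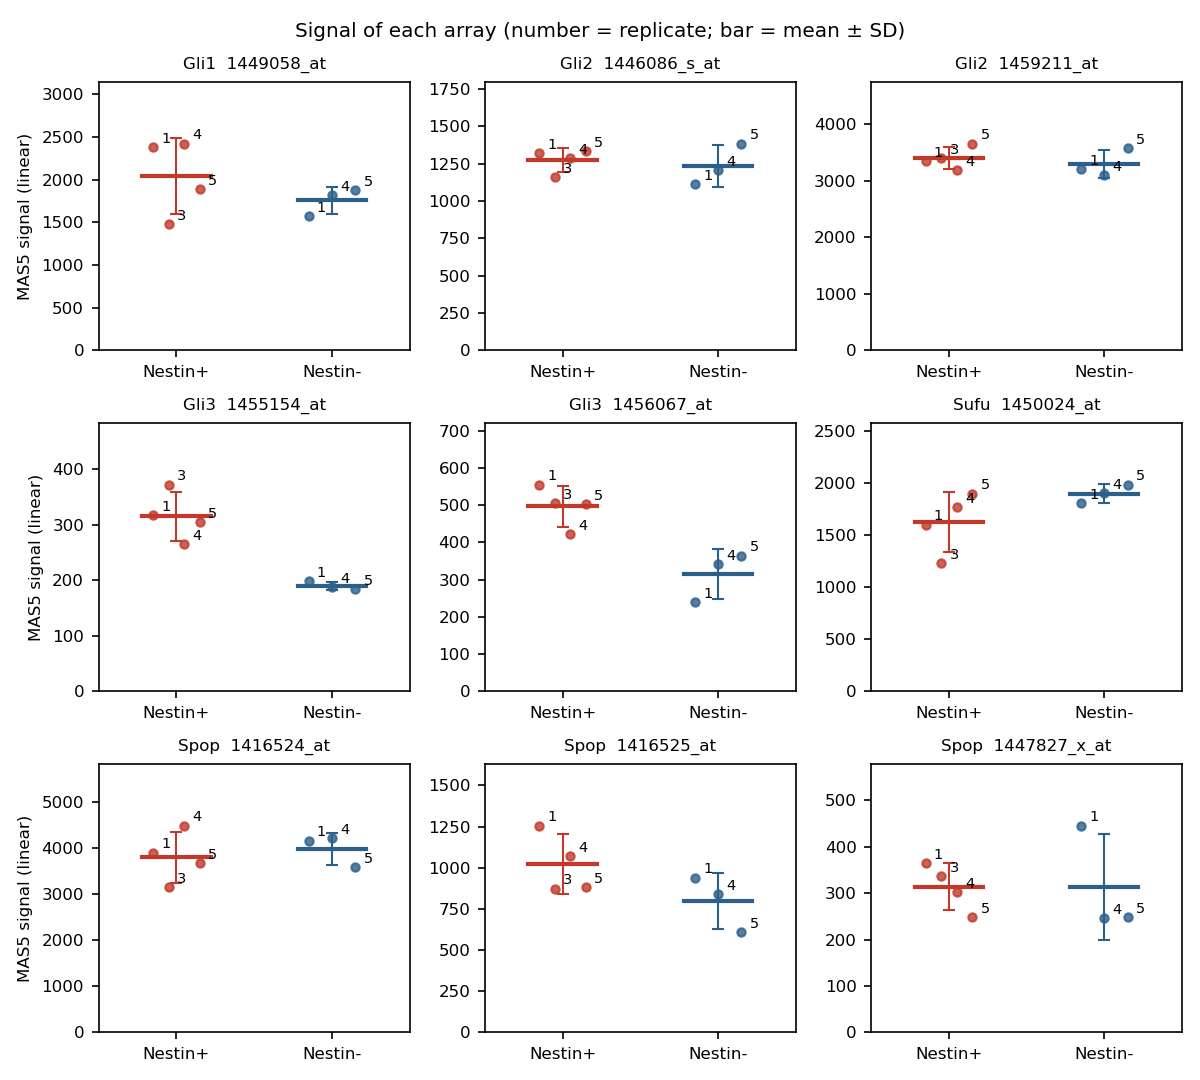
MAS5 signal on a linear scale for the 9 probe sets tested, 1 panel each, with Nestin-positive arrays in red and Nestin-negative arrays in blue; numbers give the replicate, bars the mean ± SD. The fractions are apart in both Gli3 panels (264.6 to 372.2 against 183.8 to 198.4 for 1455154_at) and overlap in the other 7.

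Gli1 is the activator whose transcript is most used as a readout of the pathway. Its only probe set (1449058_at) had a signal of 2375, 1479, 2421 and 1890 on Nestin-positive replicates 1, 3, 4 and 5, and of 1575, 1819 and 1873 on Nestin-negative replicates 1, 4 and 5. Nestin-positive arrays held both the highest value (replicate 4) and the lowest (replicate 3), so that the fractions overlapped. The mean signal was 2041 ± 445 (SD, n = 4) against 1756 ± 159 (SD, n = 3), and the fitted log2 change was 0.19 ± 0.18 (SE; limma, adjusted p = 0.854). The 95% interval of the fold ran from 0.853 to 1.53, which leaves room for a moderate difference either way.

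Within pairs, Gli1 signal in Nestin-positive cells was 1.51 times that in Nestin-negative cells for replicate 1, 1.33 times for replicate 4 and 1.01 times for replicate 5. The blocked fit gave a log2 change of 0.34 ± 0.12 (SE; limma, adjusted p = 0.166). Of its pairs, replicate 5 decided the side of the threshold: without it the value was 0.50 ± 0.16 (SE; limma, adjusted p = 0.0359). Leaving out the unpaired Nestin-positive replicate 3 from the fit without a block moved the log2 change to the same 0.34, and the call was not gained (limma, adjusted p = 0.654). The 2 estimates are equal by design, because an array alone in its block does not enter the blocked estimate.

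Gli2, the main activator of the pathway, was measured by 2 probe sets that the annotation draws from the same source sequence. The brighter (1459211_at) had a signal of 3341, 3401, 3192 and 3658 on Nestin-positive replicates 1, 3, 4 and 5 and of 3202, 3105 and 3582 on Nestin-negative replicates 1, 4 and 5. These 7 values stayed within a factor of 1.18 of each other, with the fractions interleaved. The log2 change was 0.05 ± 0.10 (SE; limma, adjusted p = 0.961), and the 95% interval of the fold was 0.886 to 1.20. The dimmer probe set (1446086_s_at) read 1161 to 1335 in Nestin-positive and 1112 to 1384 in Nestin-negative cells, with a log2 change of 0.05 ± 0.12 (SE; limma, adjusted p = 0.963). With the block, the log2 changes were 0.04 for the brighter and 0.10 for the dimmer. A difference above 1.25-fold lies outside the intervals of both Gli2 probe sets without the block.

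Gli3, which in the absence of signal is processed to the chief repressor of Hedgehog targets, had higher signal on every Nestin-positive array than on any Nestin-negative array in both probe sets tested. The brighter (1456067_at) read 555.4, 506.4, 422.1 and 502.6 on Nestin-positive replicates 1, 3, 4 and 5 and 238.8, 341.0 and 364.5 on Nestin-negative replicates 1, 4 and 5. Nestin-negative replicate 1 stood lowest, and the nearest values of the fractions were 422.1 and 364.5. The means were 497 ± 55.2 (SD, n = 4) and 315 ± 66.8 (SD, n = 3), a log2 change of 0.67 ± 0.19 (SE) or 1.60-fold (95% interval 1.18 to 2.16; limma, adjusted p = 0.281).

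The other Gli3 probe set (1455154_at) read 317.5, 372.2, 264.6 and 305.4 on Nestin-positive replicates 1, 3, 4 and 5 and 198.4, 187.1 and 183.8 on Nestin-negative replicates 1, 4 and 5. Here Nestin-negative replicate 1 was the highest of its group and the group was tight (190 ± 7.66, SD, n = 3). The log2 change was 0.72 ± 0.17 (SE) or 1.65-fold (95% interval 1.25 to 2.17; limma, adjusted p = 0.221). For each Gli3 probe set the exact permutation test (two-sided, 35 splits) gave p = 0.0286, below which 4 arrays against 3 cannot go; it is not adjusted over the 9 probe sets. The change was of like size in both probe sets (0.67 and 0.72), while their deviations from the group means correlated with r = 0.14 over the 7 arrays.

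With the replicate block the second Gli3 probe set rose by 0.64 ± 0.17 (SE; limma, adjusted p = 0.0487), and the brighter differed by 0.66 ± 0.18 (SE; limma, adjusted p = 0.0544). The call of the second was lost without pair 1 (log2 change 0.62, adjusted p = 0.112) and without pair 5 (0.59, adjusted p = 0.198), with changes about as large, and kept without pair 4 (0.70, adjusted p = 0.0326) and with a random block (0.67, adjusted p = 0.0335; all limma). For the brighter probe set, pair 1 had a ratio of 2.33, against 1.24 in pair 4 and 1.38 in pair 5. Without pair 1 its log2 change was 0.39 ± 0.19 (SE; limma, adjusted p = 0.387), and without pairs 4 and 5 in turn 0.84 and 0.76 (limma, adjusted p = 0.00378 and 0.0122). A blocked fit with 1 row per gene, chosen after seeing the data, gave the same 0.66 with an adjusted p of 0.0108 (limma), where that fit called 3.58% of genes as higher. The fold was thus between 1.24 and 2.33 in the 3 pairs, and its call depended on the block, on the set of rows tested and on single pairs. The dim Gli3 probe set (1450525_at) had a signal of 1.26 to 25.1 on the 7 arrays and bears on none of this.

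**Figure D2:**
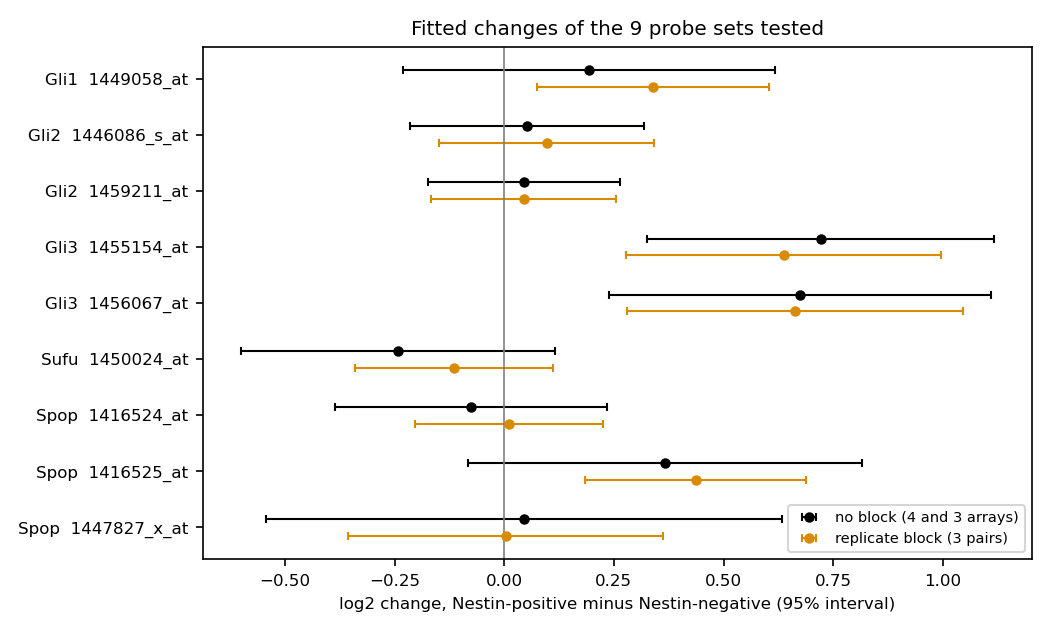
Fitted log2 change, Nestin-positive minus Nestin-negative, with its 95% interval for the 9 probe sets tested; black is the fit on all 7 arrays without a block and orange the fit with the replicate number as a block. Both Gli3 intervals lie above 0 in both fits, both Gli2 intervals span 0 in both, and those of Gli1 and Spop 1416525_at leave 0 with the block alone; none of these intervals is adjusted for the number of probe sets.

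The changes of the 3 Gli factors were set against each other within each array, over 3 ratios. The log2 ratio of Gli3 to Gli2 was -2.59, -2.75, -2.92 and -2.86 on Nestin-positive replicates 1, 3, 4 and 5 and -3.75, -3.19 and -3.30 on Nestin-negative replicates 1, 4 and 5. All 4 Nestin-positive ratios were the higher ones, by a mean of 0.63 (exact two-sided permutation test, p = 0.0286, the smallest possible, and 0.0857 adjusted over the 3 ratios). The ratio thus differed in 3 of 3 pairs in the same direction and did not pass after adjustment. A ratio that alone reaches the smallest possible p cannot pass when adjusted over 3, so the test could not decide this. Gli3 against Gli1 differed by 0.48 (exact permutation test, p = 0.143, adjusted 0.214) and Gli1 against Gli2 by 0.15 (exact permutation test, p = 0.543), and in both the arrays of the fractions overlapped. No difference between the changes of Gli3 and Gli1 was shown at this number of arrays.

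**Figure D3:**
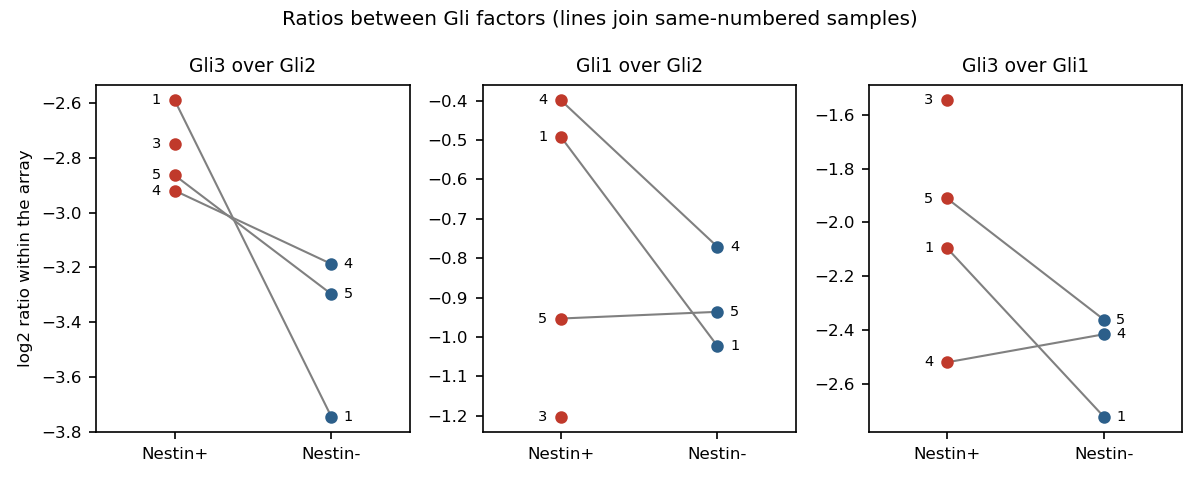
Log2 ratios between the brightest probe sets of Gli1, Gli2 and Gli3 within each array, with lines joining samples of the same replicate number; each panel has its own vertical scale, and the level of a ratio has no meaning across probe sets. Gli3 over Gli2 separates the fractions (-2.92 to -2.59 against -3.75 to -3.19), while the other panels overlap.

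Sufu, the inhibitor that binds Gli proteins in the cytoplasm, had 1 measurable probe set (1450024_at). It read 1602, 1230, 1772 and 1900 on Nestin-positive replicates 1, 3, 4 and 5 and 1810, 1903 and 1986 on Nestin-negative replicates 1, 4 and 5. Nestin-positive replicate 3 stood lowest, and replicate 5 of that fraction lay within the Nestin-negative range. The log2 change was -0.24 ± 0.16 (SE; limma, adjusted p = 0.72), and the 95% interval of the fold was 0.659 to 1.08. The pair ratios were 0.885, 0.932 and 0.957 for replicates 1, 4 and 5, all below 1. With the block the log2 change was -0.11, which by design is also the estimate without Nestin-positive replicate 3. The dim Sufu probe sets read 19.7 to 80.1 and 5.78 to 75.4.

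Spop, the adaptor that brings Gli2 and Gli3 to the Cul3 ligase, had 3 measurable probe sets. The brightest (1416524_at) read 3904, 3149, 4491 and 3669 on Nestin-positive replicates 1, 3, 4 and 5 and 4164, 4212 and 3583 on Nestin-negative replicates 1, 4 and 5. Values of both fractions interleaved, with a log2 change of -0.08 ± 0.13 (SE; limma, adjusted p = 0.948) and a 95% interval of the fold of 0.766 to 1.18. Its sign turned with the block (0.01), which by design is also the estimate without Nestin-positive replicate 3.

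The second Spop probe set (1416525_at), which the annotation draws from the same source sequence, read 1256, 873.2, 1072 and 883.5 on Nestin-positive replicates 1, 3, 4 and 5 and 940.5, 837.4 and 609.3 on Nestin-negative replicates 1, 4 and 5. Its signal was above that of the partner array in all 3 pairs, by 1.34, 1.28 and 1.45 times for replicates 1, 4 and 5, although the ranges overlapped. The log2 change was 0.37 ± 0.20 (SE; limma, adjusted p = 0.637), and 0.44 ± 0.12 with the block (SE; limma, adjusted p = 0.054). Without pair 4 the blocked change was 0.48 (limma, adjusted p = 0.034), and without pairs 1 and 5 in turn 0.45 and 0.39 (adjusted p = 0.145 and 0.225). The log2 ratio of the second to the brightest probe set was -2.07 to -1.64 on Nestin-positive and -2.56 to -2.15 on Nestin-negative arrays. This comparison was chosen after the values were seen and was not tested. The 95% intervals of the Spop changes overlapped, which does not decide it, because both probe sets were read on the same arrays. The third (1447827_x_at), whose suffix marks probes that may bind other transcripts, read 248.0 to 365.2 in Nestin-positive and 246.6 to 445.5 in Nestin-negative cells, with a log2 change of 0.04 ± 0.26 (SE; limma, adjusted p = 0.991).

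Nestin-positive replicate 3, the array without a partner, had the lowest signal of all 7 arrays for Gli1, for Sufu 1450024_at and for the brightest Spop probe set, and the highest for Gli3 1455154_at. It also had the highest summed signal of 13 astrocyte and Bergmann glia markers (32807, against 9514 to 25296 on Nestin-negative and 11583 to 18213 on the other Nestin-positive arrays). Fabp7 alone gave 14170 of that sum. Fabp7, Slc1a2, Slc1a3, Aldh1l1 and Gdf10 were highest on this array and Sox9 was lowest. Aqp4, Hopx, Aldoc, Apoe and Hepacam were lower on it than on Nestin-negative replicates 4 and 5, so the list did not move as one. The astrocyte sums of the fractions overlapped, and their part in the member values was not tested. Both the Gli1 and the Sufu changes are given above without replicate 3. Without replicate 3, the log2 change of Gli3 was 0.66 for the brighter probe set and 0.64 for the other, by design the same estimates as with the block.

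Like the granule neuron precursor sum above, summed markers of microglia and GABAergic interneurons were lower on every Nestin-positive array than on any Nestin-negative array. The other sums overlapped. The 8 microglia markers, 7 of which passed the filter, summed to 252 to 1011 in Nestin-positive and 1882 to 7215 in Nestin-negative cells, with Aif1 and Lyz2 dim on all 4 Nestin-positive arrays. The sums of 7 pericyte and smooth muscle markers (6 passed) were 453 to 1788 and 1164 to 9067, with Tagln dim on all 4 Nestin-positive arrays, and those of 7 meningeal fibroblast markers (5 passed) were 3585 to 5555 and 5067 to 11008, with Col1a1 and Foxc1 dim on all 4 Nestin-positive arrays. The 5 endothelial markers (4 passed) summed to 215 to 1172 and 295 to 1186, the oligodendrocyte lineage markers to 2898 to 4125 and 3314 to 3566, and the GABAergic interneuron markers to 50 to 216 and 495 to 813. Of the 4 GABAergic interneuron markers on the array, 2 passed. Gad1 and Slc32a1 were dim on all 4 Nestin-positive arrays, and Gad2 overlapped (37.67 to 72.01 against 46.51 to 58.24). The dividing-cell gene Mki67, of the granule neuron precursor list, read 7326 to 9246 in Nestin-positive and 4950 to 6223 in Nestin-negative cells. The part of these, and of the granule neuron precursor sum above, in the Gli3, Gli1 and Sufu values was not tested. In sorted bulk RNA, fewer expressing cells and less RNA per cell cannot be told apart.

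Genes that process and degrade Gli proteins had a median change near 0. Of 21 listed genes, 19 passed the filter, with a median log2 change of 0.01 beside -0.03 over all 11089 genes by their brightest probe set. Limma called 0 of the 19 without the block (1 at an unadjusted p under 0.05, as 13% of all genes) and 0 with it, where the blocked fit called 1.6% of genes as higher and 4.14% as lower. Kif7, a kinesin at the tip of the cilium that holds Gli proteins there, and Cul1, the scaffold of the ligase that starts Gli3 processing, had all Nestin-positive values above all Nestin-negative ones, and Dyrk2, a kinase acting on Gli proteins, had them below. This is 2 of 19 higher and 1 lower, where 5.87% and 9.11% of all genes showed such a separation. Kif7 read 387.6 to 523.4 against 343.4 to 359.7 (log2 change 0.30 ± 0.15 SE), Cul1 2514 to 3176 against 2365 to 2490 and Dyrk2 1817 to 2340 against 2357 to 2416; these 3 were named after their values were seen. The partners of the members are given for comparison: Cul3, the ligase scaffold for Spop, differed by 0.12 ± 0.11 (SE), and Spopl, the paralogue of Spop, by 0.34 ± 0.25 (SE).

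Target genes of the Gli factors were read beside them. Of 18 listed, 16 passed the filter, with a median log2 change of 0.22 (-0.03 over all genes). Limma called 0 without the block (7 at an unadjusted p under 0.05, 6 of them higher, where 13% of all genes passed). In the blocked fit 4 of the 16 rose and 1 fell, where 1.6% of all genes were called higher and 4.14% lower. Values did not overlap between the fractions for 6 higher and 2 lower, where 5.87% and 9.11% of all genes showed this. Hhip, a membrane antagonist of Hedgehog ligands, rose by 0.91 ± 0.15 with the block (SE; limma, adjusted p = 0.0037), and its signal was 717.4 to 1035 in Nestin-positive against 407.9 to 546.3 in Nestin-negative cells. The cytoskeletal protein gene Pdlim3 rose by 2.13 ± 0.11, Prom1, a membrane glycoprotein of progenitors, by 0.56 ± 0.11, and Hes1, a repressor also induced by Notch, by 0.93 ± 0.15 (SE, with the block). Igf2, a growth factor, was lower by a log2 change of -1.74 ± 0.15 (SE, with the block, limma, adjusted p = 4.23e-05). The pericyte and meningeal sums above overlapped between the fractions, and their part in the Igf2 value was not tested. Adjusted p-values of the blocked fit for the 4 that rose lay between 1.57e-06 and 0.00924.

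Other targets, named here after their values were seen, gave smaller values. E2f1 was lower on every Nestin-positive array (793.4 to 1193 against 1223 to 1290) and Cdk6 was higher (6439 to 7749 against 5989 to 6141). Neither was called in either fit. Mycn and Ccnd2, growth genes of this lineage, differed by -0.07 ± 0.09 and -0.14 ± 0.12 (SE) without the block, while Ptch1 differed by 0.21 ± 0.08 (SE; limma, adjusted p = 0.432; 0.285 with the block) and Ccnd1 by 0.38 ± 0.17 (SE; limma, adjusted p = 0.541). Some members of the list were known from earlier results of these data, so its direction is no independent evidence.

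Upstream of the Gli factors, 13 of 19 listed ligands, receptors and transducers passed the filter, among them no ligand gene, with a median log2 change of 0.04. Limma called 0 without the block (6 at an unadjusted p under 0.05, 4 of them higher, against 13% of all genes) and 1 higher, Hhip, with it, against 1.6% of all genes. Values did not overlap between the fractions for 5 higher and 2 lower, where 5.87% and 9.11% of all genes showed this. Hhip and Ptch1 are counted in the target list too. Named after their values were seen, Evc and Evc2 differed by 0.48 ± 0.17 and 0.39 ± 0.16, and Adcy5 and Arrb1 by -0.81 ± 0.23 and -0.65 ± 0.20 (SE, without the block). These 4 were called in neither fit. Smo, the signal transducer released by loss of Ptch1, read 2180 to 2978 in Nestin-positive and 2221 to 2801 in Nestin-negative cells and differed by 0.04 ± 0.15 (SE; limma, adjusted p = 0.986).

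**Figure D4:**
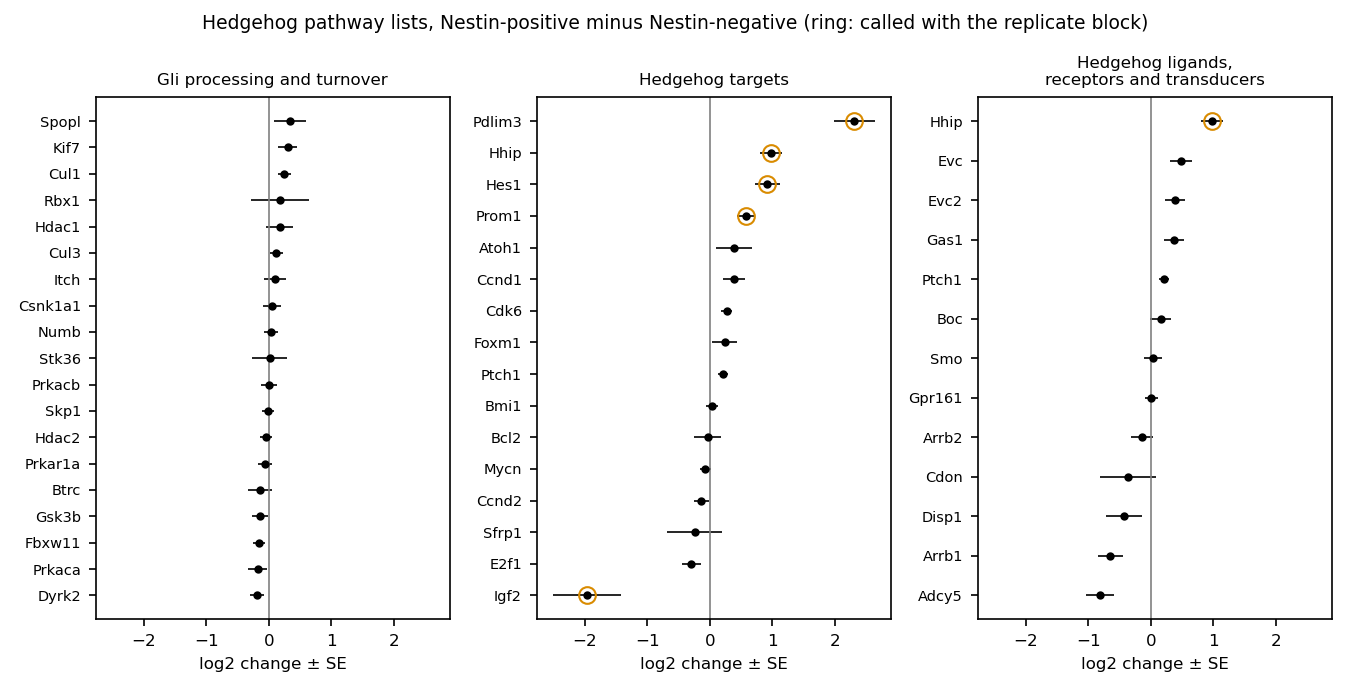
Log2 change ± SE without the block for the brightest probe set of each measured gene in 3 Hedgehog lists, Nestin-positive minus Nestin-negative; a ring marks genes called with the replicate block. The 19 genes of Gli processing lie between -0.19 and 0.34, whereas the 16 targets range from -1.97 (Igf2) to 2.31 (Pdlim3).

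The genes whose log2 signal ran most like each member over the 7 arrays are given as a description, since arrays of 2 fractions and shared pairs make high correlations common. For Gli3 (1456067_at) they were Topbp1, a DNA replication and checkpoint protein (r = 0.99), Akap13, a kinase anchoring protein (r = 0.99), and Ckap2, a spindle protein of dividing cells (r = 0.98). For Gli1 they were the lipase gene Lpl (r = 0.97), Cdk10 (r = 0.96) and the histone gene H2ax (r = 0.95), and for Gli2 Mpp7 (r = 0.97), the DNA repair enzyme gene Parp1 (r = 0.96) and Actl6a (r = 0.93). Sufu ran with Impdh1, Cd99 and Ccdc84 (each r = 0.99), and Spop with Sympk, Safb and Akirin1 (r = 0.99, 0.98 and 0.98). Among the members themselves r ranged from -0.68 (Gli2 and Spop) to 0.58 (Sufu and Spop), and Gli3 had r = 0.40 with Gli1 and 0.46 with Gli2.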

How the data were processed

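Sorted-cell RNA was hybridised to 1-colour arrays, and the authors deposited MAS5 signals, which are linear intensities with 1 value per probe set, as named in the submitters' processing notes (version not given in the sources used here). On every deposited array the mean without the lowest and highest 2% was 499.8 or 499.9. MAS5 subtracts mismatch signal, which makes ratios of dim intensities noisy. Groups and replicate numbers came from the sample titles. Of 45101 probe sets, 64 controls were left out; 34945 had 1 gene in the platform annotation, with symbols updated through RefSeq (GRCm38.p6).

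Deposited intensities were log2-transformed with no pseudocount. Probe sets at or above the array median on at least 3 arrays (23585) entered 1 limma fit (limma 3.58.1, R 4.3.3; eBayes with an intensity trend, two-sided, all 7 arrays, no covariates), with Benjamini-Hochberg adjustment over all of them and a threshold of 0.05. The brightest kept probe set stood for its gene (11089 genes). The fit without a block was run on simulated data with less spread than these arrays, no pairing and added changes larger than those of the members. That setting is easier than these data, so it does not show what the fit can find here. The blocked fit was not run on simulated data. Across genes, same-numbered samples deviated together from their group means (r = 0.71, 0.39 and 0.47 for replicates 1, 4 and 5; other pairs at most 0.19), so the numbers were taken to pair the samples. The blocked fit rests on 3 pairs, with 2 residual degrees of freedom per probe set.

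Named are all member probe sets, Nes, Ptch1, list genes called in either fit, and the 3 genes most correlated with each member; others are said to be chosen later. The members, lists and rules were chosen with earlier results of these data known. Alternatives were other scalings, filters, an offset of 50, gene summaries, blocks and left-out arrays.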

Additional observations from a re-analysis of the deposited data

How the results depend on the processing

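With limma, the 0 probe sets called higher and 0 called lower without the block (2283 at an unadjusted p under 0.05) became 296 and 709 with the replicate block, and 221 and 480 with it as a random block. They were 19 and 64 genes with 1 row per gene, 14 and 29 with the mean of a gene's probe sets, and 397 and 709 with 1 row per gene and the block, an alternative chosen after seeing the data. Leaving out single arrays gave 0 each time, and leaving out pairs from the blocked fit gave 278 to 763 higher and 626 to 993 lower. Fewer rows entered the fits with 1 row per gene; the cause of the other shifts was not tested.

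The log2 change of Gli3 kept its sign in all 22 alternatives and passed in 3 of them: 0.663 with 1 row per gene and the block, and the blocked fit without pair 4 or 5 (0.386 to 0.841 over left-out pairs, 0.487 to 0.792 over left-out arrays). Its fractions did not overlap, so leaving out arrays or pairs could not turn the sign. Several other alternatives, such as the filters, change the test and repeat the estimate, so the count of 22 is no measure of stability. The other Gli3 probe set passed with the block (0.637), with the random block (0.673) and in the blocked fit without pair 4 (0.705). Gli1 passed in 1, the blocked fit without pair 5 (0.502; 0.213 to 0.502 over pairs, 0.102 to 0.339 over arrays). Sufu and the brighter Gli2 probe set kept their sign and passed in none. The brightest Spop probe set turned positive with the mean of its probe sets (0.112), with the block (0.011, also with 1 row per gene), and in leave-one-out fits (-0.16 to 0.063). The dimmer Gli2 probe set (-0.02 to 0.171) and the third Spop probe set (-0.143 to 0.327) changed sign over left-out arrays or pairs, and the second passed in 1, the blocked fit without pair 4 (0.476). The 3 ratios between Gli factors kept their sign and passed in none of 12 alternatives, where 6 arrays cannot pass that test; they were not run with a block.

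The Gli processing median was 0.063 with the mean of probe sets and -0.056 to 0.043 in leave-one-out fits. Hedgehog targets had a median of 0.133 to 0.302 in those fits. Their counts called higher were 2 with 1 row per gene, 1 with the mean of probe sets, 4 with either block and 7 with 1 row per gene and the block, and 0 to 4 in leave-one-out fits; counts lower were 1 with the blocks and 0 to 1. For receptors and transducers the median was 0.156 where all arrays had to reach the array median, and -0.027 to 0.144 in leave-one-out fits. There, 1 was higher with 1 row per gene and with either block, 2 were higher and 2 lower with 1 row per gene and the block, and 0 to 2 were higher and 0 to 1 lower in leave-one-out fits. Dim signal limits the 3 untested probe sets.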
